A study of Homo sapiens with 5 samples.

Results

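The cell's own genes for DNA methylation were examined here for their methylation: DNMT1, DNMT3A, DNMT3B and DNMT3L, which encode the DNA methyltransferases and their cofactor, and UHRF1. Their windows were those that the deposited table assigns to one of these genes, or that overlap the gene, extended by 1500 bases on each side. Of 288391 windows of 1000 bases, 143 met this rule: 39 of DNMT1, 27 of UHRF1, 47 of DNMT3A, 17 of DNMT3B and 13 of DNMT3L. No methylation value entered the choice.

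DNMT1 is the maintenance methyltransferase, which copies methylation onto the new strand after replication. UHRF1 binds hemimethylated CpG sites and brings DNMT1 to them. DNMT3A and DNMT3B are the de novo enzymes, and DNMT3L is a cofactor without catalytic activity that stimulates them. DNMT3B is typically expressed at high levels in pluripotent cells. 5-aza-dc (5-aza-2′-deoxycytidine) is built into DNA, where it traps methyltransferases, DNMT1 above all, so that methylation is lost as cells divide. CpG-rich promoters of expressed genes are as a rule unmethylated and gene bodies methylated.

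Reduced representation bisulfite sequencing (RRBS) was performed on human iPSCs of the 201B7 line, an established line whose genotype the labels give as WT. Cells had been exposed for 48 h to 5-aza-dc at 10 nM, theophylline at 1 µM, propyl gallate at 1 µM or etoposide at 1 nM, with DMSO at 0.1% as the vehicle control. The study had classed etoposide and propyl gallate as hypermethylation agents and theophylline and 5-aza-dc as hypomethylation agents. It did so by imaging a methyl-CpG-binding domain marker in reporter iPSCs, with 5-aza-dc at a higher concentration than here. Each condition is 1 library without a replicate, so no test compares conditions. The β-value of a window is the share of its CpG calls that were methylated, in percent. Calls are not independent molecules, since a read can hold several and PCR copies reads, so every interval given covers counting error only.

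The windows of the table hold between 188844850 and 228919184 calls per library, and the 143 windows between 102471 and 120674. Single windows of the 5 genes had 10 to 4270 calls, with a median of 492 to 667 per library. The median width of the 95% Wilson interval was 4.20 to 4.90 percentage points. Of the pluripotency genes checked at their start windows, LIN28A and DPPA4 lay at or below 2.86% in every library. ZFP42 lay between 37.2% and 60.9%, and POU5F1, at the start that the table gives, between 83.2% and 87.9%, so these 2 windows did not show the low level of an active start. NANOG, TDGF1, THY1 and S100A4 had no start window in the table. PAX6, TBXT and SOX17, genes of differentiated germ layers, were at or below 2.71% and the fibroblast gene COL1A1 at or below 8.48%, so the start windows did not separate these cell types.

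The sequences upstream of the RefSeq transcript starts were compared with the measured windows, though a window does not show which of its bases were read. These sequences are the 250 bases before a start (GRCh38.p14, 5′ to 3′ on the gene's strand), with CpG sites in capitals. They are shown for 1 start each of DNMT1, DNMT3A and DNMT3B and for 2 starts of UHRF1, which lie in neighbouring island windows. The DNMT1 stretch is chr19:10194954-10195203 (minus strand), that of DNMT3A chr2:25342591-25342840 (minus) and that of DNMT3B chr20:32779602-32779851 (plus). Those of UHRF1 are chr19:4909251-4909500 and chr19:4909894-4910143 (plus). No DNMT3L sequence was used.
DNMT1: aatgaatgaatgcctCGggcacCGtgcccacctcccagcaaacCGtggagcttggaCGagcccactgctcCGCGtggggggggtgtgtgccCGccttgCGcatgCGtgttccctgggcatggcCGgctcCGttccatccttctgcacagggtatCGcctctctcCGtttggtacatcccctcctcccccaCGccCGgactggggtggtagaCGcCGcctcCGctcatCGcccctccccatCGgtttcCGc
UHRF1, first start: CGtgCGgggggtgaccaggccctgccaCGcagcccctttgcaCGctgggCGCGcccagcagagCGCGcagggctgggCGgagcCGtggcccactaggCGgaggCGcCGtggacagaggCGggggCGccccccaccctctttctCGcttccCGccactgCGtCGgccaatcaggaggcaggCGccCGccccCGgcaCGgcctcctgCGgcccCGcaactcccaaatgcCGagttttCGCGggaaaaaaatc
UHRF1, second start: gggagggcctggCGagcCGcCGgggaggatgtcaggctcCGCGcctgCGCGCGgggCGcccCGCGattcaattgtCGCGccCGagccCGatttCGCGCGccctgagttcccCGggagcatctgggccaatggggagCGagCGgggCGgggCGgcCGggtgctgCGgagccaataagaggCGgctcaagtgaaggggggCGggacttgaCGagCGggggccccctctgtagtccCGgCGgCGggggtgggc
DNMT3A, outermost start: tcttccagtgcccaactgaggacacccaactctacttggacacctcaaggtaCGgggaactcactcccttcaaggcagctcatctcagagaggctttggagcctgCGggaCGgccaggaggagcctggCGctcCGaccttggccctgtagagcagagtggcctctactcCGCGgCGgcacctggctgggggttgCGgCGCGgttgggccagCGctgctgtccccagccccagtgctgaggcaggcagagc
DNMT3B: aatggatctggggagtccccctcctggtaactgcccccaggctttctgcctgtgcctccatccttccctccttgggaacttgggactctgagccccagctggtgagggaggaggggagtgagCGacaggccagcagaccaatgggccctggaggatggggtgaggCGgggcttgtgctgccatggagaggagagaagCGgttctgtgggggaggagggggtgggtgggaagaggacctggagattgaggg

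The DNMT1 stretch holds 21 CpG sites, those of UHRF1 28 and 32, that of DNMT3A 12 and that of DNMT3B 3, against a median of 11 over 35116 such stretches of all genes. CCGG, which reads the same on both strands and is the site of MspI, the enzyme commonly used for RRBS, occurs 2 times in the DNMT1 stretch, 1 and 4 times in those of UHRF1 and not in those of DNMT3A and DNMT3B. It occurs in 58.5% of all stretches. The DNMT3A stretch shown is the poorest of 6 for this gene, since those of the 5 other starts hold 15 to 33 CpG sites and 3 to 7 CCGG. The other UHRF1 stretch, not shown, holds 6 CCGG and 41 CpG sites. GGGCGG, the core of the GC box, searched on both strands, occurs 2 and 3 times in the UHRF1 stretches shown and not in the other 3 shown, 2 or 3 times in 4 of the 5 other DNMT3A stretches, and in 42.6% of all stretches. The window that holds the start was in the table for DNMT1, UHRF1 and DNMT3A, and 47 bases of the DNMT1 stretch and all 250 of the UHRF1 and DNMT3A stretches lie in measured windows. For this DNMT3B start, which lies inside the gene, it was not, and the next window measured, 32780001, was at 92.3% to 95.1%.

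**Figure D1:**
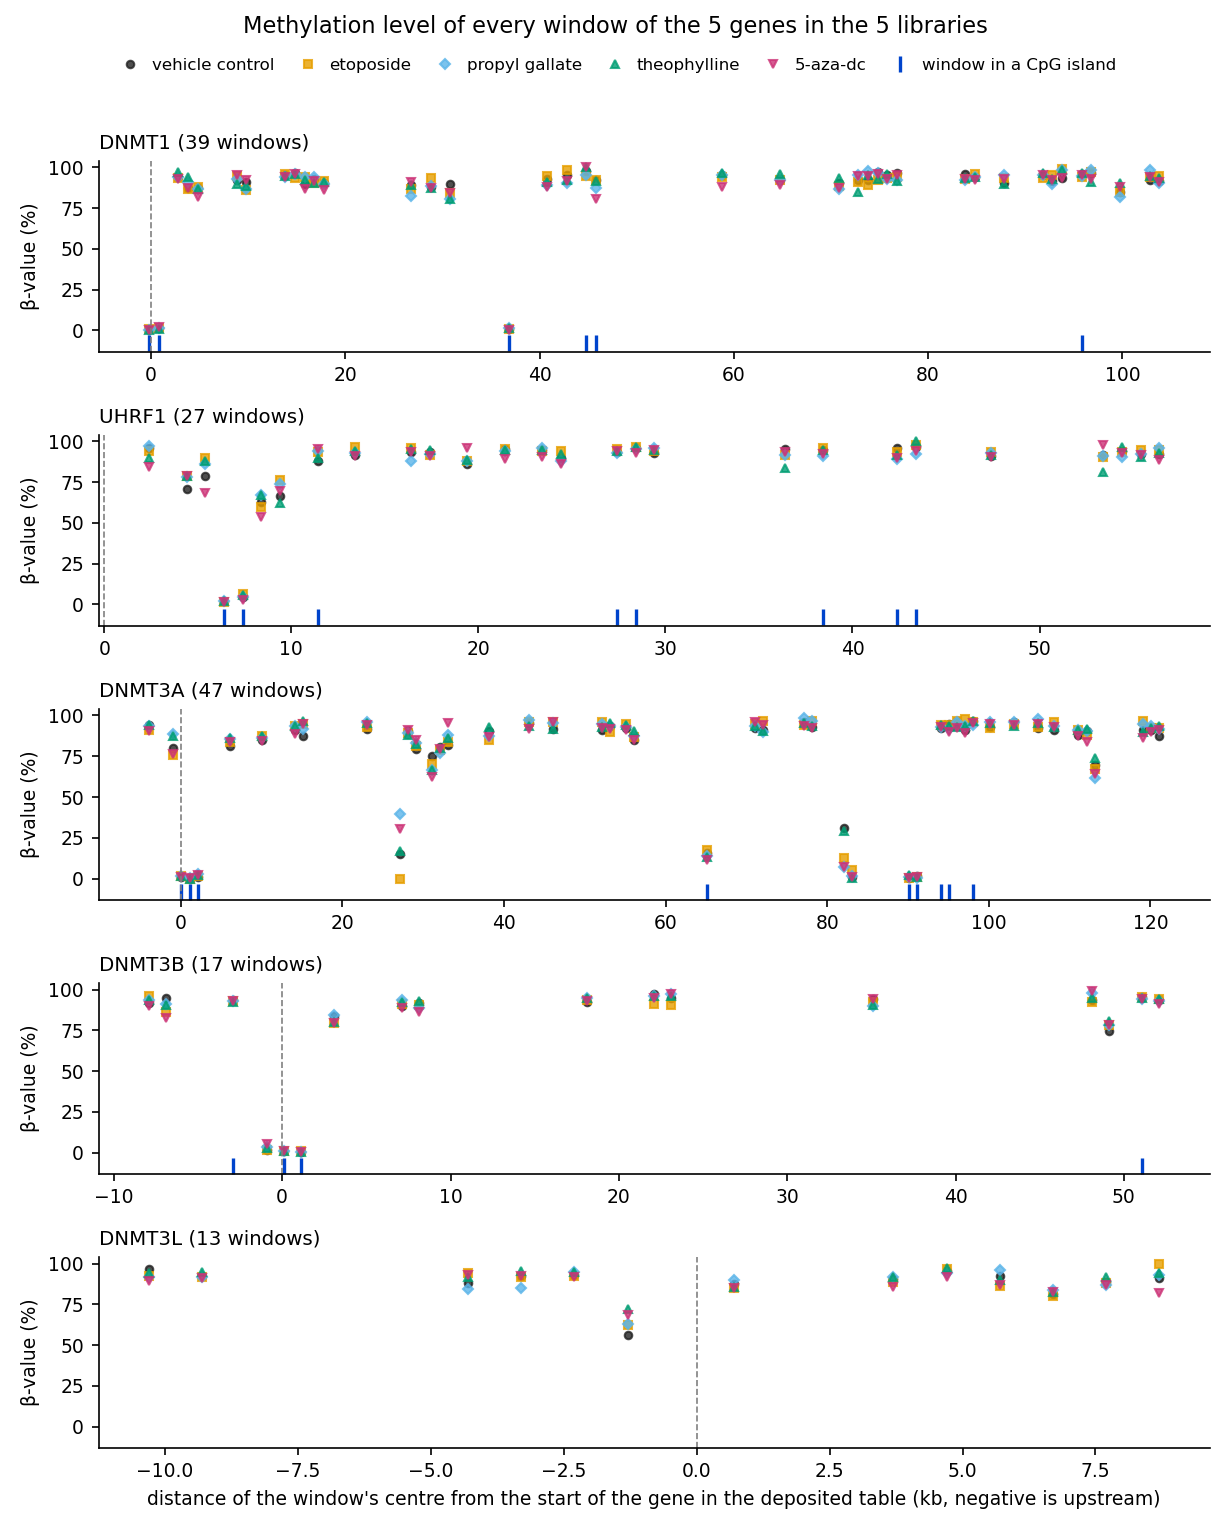
Methylation level (β-value, %) of all 143 windows against the distance of the window's centre from the start of the gene as the deposited table places it (kb). Each symbol is 1 library and blue ticks mark windows in CpG islands. Levels near 0 were found at the starts of DNMT1, DNMT3A and DNMT3B, about 6 to 8 kb into UHRF1 and inside DNMT3A, while DNMT3L had no window under 10%.

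Most of the 143 windows were highly methylated in all libraries. By the mean of the 5 libraries, 121 windows (84.6%) lay at or above 70%, 14 (9.79%) under 10% and 8 (5.59%) in between, against 84.3%, 9.61% and 6.09% of all windows. The low windows were 3 of DNMT1, 6 of DNMT3A, 3 of DNMT3B and 2 of UHRF1, and 12 of the 14 lay in CpG islands. Another 14 island windows were at or above 70%, none of them at a start, and 1 island window of DNMT3A lay between 11.5% and 17.3%.

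Over the 143 windows the mean β-value was 80.2% in the control (95% counting interval 80.0 to 80.4), 80.5% with etoposide, 80.5% with propyl gallate, 80.9% with theophylline and 79.1% with 5-aza-dc (78.8 to 79.4). The 5-aza-dc library was thus the lowest of the 5, and the vehicle control the next. Relative to the control, 5-aza-dc differed by -1.07 percentage points (-1.45 to -0.695), against -1.03 over all windows. The difference was 0.645 after theophylline (0.273 to 1.02), 0.320 after propyl gallate (-0.0323 to 0.672) and 0.280 after etoposide (-0.0739 to 0.635), against 0.975, 0.566 and 0.513 over all windows. In each comparison the value over all windows lay inside the interval of the 143.

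All 10 pairs of libraries were set side by side, since the 4 chemicals share 1 vehicle control. In the 4 pairs with 5-aza-dc the libraries lay 1.07 to 1.72 percentage points apart over the 143 windows, and in the 6 pairs without it 0.0397 to 0.645. The ranges do not overlap, and the same order held over all windows (1.03 to 2.01 against 0.0526 to 0.975). Within each of the 5 genes the ranges did overlap. The smallest difference with 5-aza-dc against the largest without it was 0.661 against 0.673 for DNMT1, 1.43 against 1.70 for UHRF1, 0.583 against 1.16 for DNMT3A, 0.106 against 1.33 for DNMT3B and 1.44 against 2.36 for DNMT3L. 5-aza-dc gave the lowest of the 5 values in 55 of the 143 windows (38.5%), as it did in 35.1% of all windows, and was below the vehicle control in 92 of 143 (64.3%, against 58.4%). The mean log2 ratio of β-values to the vehicle control, the measure the study used, was taken leaving out windows at 0. It was -0.027 for 5-aza-dc (-0.066 to 0.012) and 0.034 for propyl gallate (-0.0039 to 0.072), with counting intervals that include 0. For theophylline it was 0.047 (0.0077 to 0.086) and for etoposide 0.053 (0.016 to 0.089). Its sign rested on the low windows for etoposide and propyl gallate: over windows with a mean of at least 10% these ratios were -0.00063 and -0.00095.

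**Figure D2:**
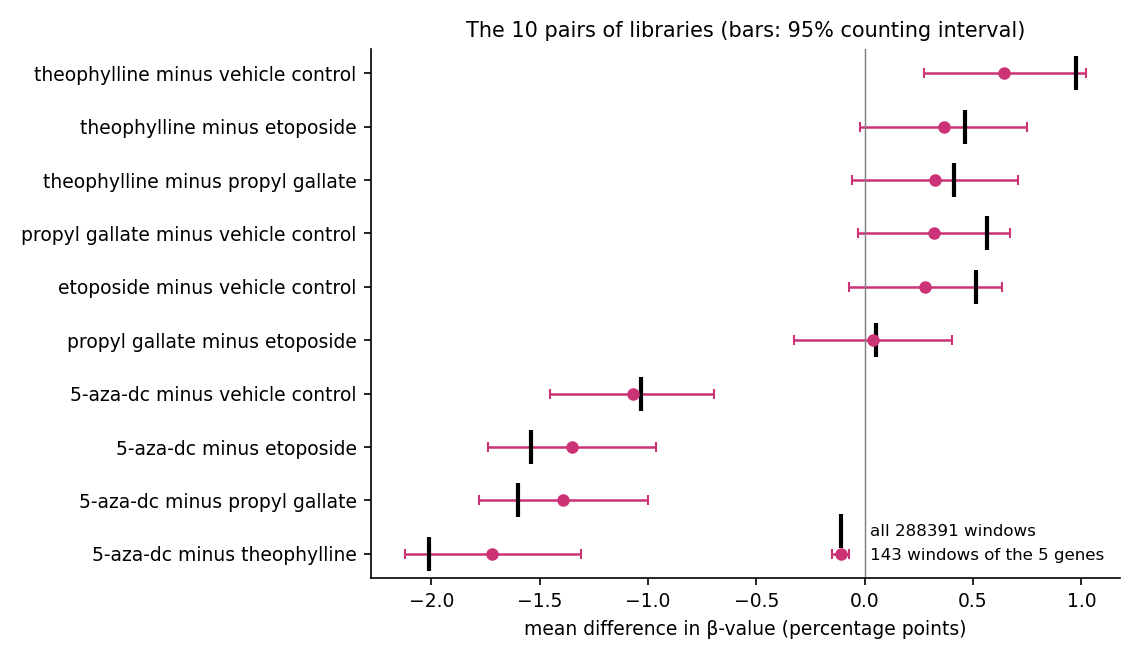
Mean difference in β-value (percentage points) for each of the 10 pairs of libraries, as points with 95% counting intervals for the 143 windows and as black bars for all 288391 windows. The 4 pairs with 5-aza-dc lie between -1.72 and -1.07 and the other 6 between 0.0397 and 0.645.

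For single windows, Fisher's exact test (two-sided) was run on the calls of 2 libraries, with Benjamini-Hochberg adjustment over all 288391 windows, so it compares libraries and not conditions. A window was called where the adjusted p was under 0.01 and the β-values differed by 10 percentage points or more. Against the vehicle control, 3 of the 143 windows (2.10%) were called higher and 4 (2.80%) lower with 5-aza-dc, where 0.876% and 2.76% of all windows were called. With theophylline 1 was called higher and 2 lower (1.59% and 0.681% of all windows). With etoposide 0 were called higher and 1 lower (1.36% and 0.956%), and with propyl gallate 0 higher and 1 lower (1.34% and 0.880%). The share called lower with 5-aza-dc is near its background, those called higher with 5-aza-dc and lower with theophylline are above it, and the other 5 are below it, all on counts of 0 to 4 windows. DNMT3B had no called window.

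Without a minimum difference the calls were 8 higher and 18 lower after 5-aza-dc (3.55% and 10.4% of all windows), 6 and 4 after theophylline (8.13% and 2.86%), 13 and 3 after etoposide (6.37% and 3.74%) and 9 and 5 after propyl gallate (6.55% and 3.71%). Of the 18 lower after 5-aza-dc, 3 belong to DNMT1, 6 to UHRF1, 7 to DNMT3A, 1 to DNMT3B and 1 to DNMT3L. Between pairs of exposed libraries, with the minimum of 10 percentage points, 1 window differed between propyl gallate and etoposide (2.26% of all windows), 2 between theophylline and etoposide (2.29%) and 5 between theophylline and propyl gallate (2.17%). 5-aza-dc differed in 5 windows from etoposide (4.23%), in 4 from propyl gallate (4.18%) and in 7 from theophylline (4.58%).

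**Figure D3:**
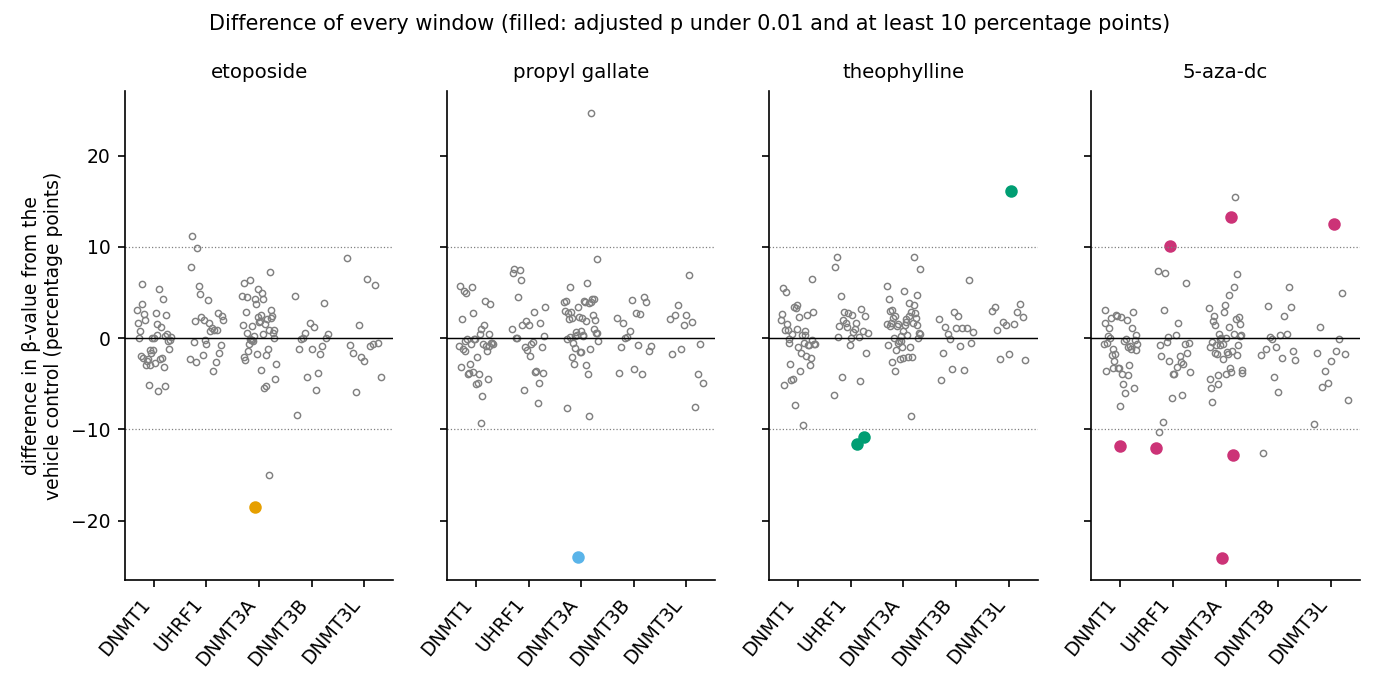
Difference in β-value from the vehicle control (percentage points) of each of the 143 windows, by gene and chemical. Filled points are windows whose adjusted p was under 0.01 (Fisher's exact test) and that lie on or beyond the dotted lines at 10 percentage points. There are 7 for 5-aza-dc, 3 for theophylline and 1 each for propyl gallate and etoposide, and DNMT3B has none.

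The maintenance methyltransferase gene DNMT1 was unmethylated at its starts in every library. The table places DNMT1 (ENSG00000130816) at chr19:10133342-10231286 on the minus strand. This start lies 36333 bases upstream of the RefSeq start at 10194953, and 45 bases from that of S1PR2, a sphingosine 1-phosphate receptor gene, so the windows there cannot be told apart between the genes. The island window of the RefSeq start, chr19:10194001-10195000, was at 0.834% in the control (18 of 2158 calls), 1.14% with etoposide, 1.25% with propyl gallate, 1.17% with theophylline and 0.487% with 5-aza-dc (11 of 2204). The 5 intervals overlap. At the start in the table, window 10230001 was between 1.11% and 2.12%. Window 10231001 was at 0.625% and 0.772% in the control and after etoposide, and had no methylated call after propyl gallate (0 of 492), theophylline (0 of 387) and 5-aza-dc (0 of 576), which allows up to 0.610%, 0.775% and 0.521%.

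The 36 other windows of DNMT1 were methylated, between 80.5% and 100%, and include windows upstream of its RefSeq start. Mean levels over the 39 windows were 85.6% in the control, 85.4% with etoposide, 85.0% with propyl gallate, 85.5% with theophylline and 84.3% with 5-aza-dc. DNMT1 was the only member whose mean was below the vehicle control after all 4 chemicals, by 0.125 to 1.33 percentage points, and the interval included 0 for etoposide and theophylline. The difference after 5-aza-dc was -1.33 (-2.00 to -0.665), with 27 of 39 windows lower. Among 10493 genes with at least 10 windows, 38.9% had a lower difference. Over the 22 windows at the RefSeq position of DNMT1 it was -1.62 (-2.49 to -0.753), and over the other 17, which include S1PR2, -0.962 (-2.00 to 0.0809).

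The largest fall in DNMT1 was in an island inside the RefSeq gene, 45.8 kb from the start in the table, which assigns this window to S1PR2. Window chr19:10185001-10186000 was at 92.3% in the control (88.5 to 94.9, 273 calls), 92.3% with etoposide, 87.3% with propyl gallate, 91.4% with theophylline and 80.5% with 5-aza-dc (76.2 to 84.4, 356 calls). 5-aza-dc stood lowest, and its difference of -11.8 percentage points had an adjusted p of 0.000458 by Fisher's exact test. The highest difference after 5-aza-dc in a DNMT1 window was 3.05, from 85.1% to 88.1% in window 10131001 (adjusted p = 0.524, Fisher's exact test). The other methylated islands, 10135001 and 10186001, were at 94.0% to 96.8% and 94.9% to 100%, the latter with as few as 10 calls. DNMT1 thus held no window called higher after any chemical.

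UHRF1, the gene of the factor that recruits DNMT1, was unmethylated in an island inside its span in the table. The table gives UHRF1 (ENSG00000276043) as chr19:4903080-4962154 on the plus strand, and the windows at that start were not in the table. The starts of the RefSeq promoters shown above lie in the island windows 4909001 and 4910001, which were looked at for this reason after their values were seen. Window chr19:4909001-4910000 was at 1.99% in the control, 1.59% with etoposide, 1.99% with propyl gallate, 2.09% with theophylline and 1.25% with 5-aza-dc, with 3210 to 4270 calls. Its neighbour chr19:4910001-4911000 was at 4.75% (4.08 to 5.52), 6.66%, 4.72%, 6.09% and 2.79% (2.30 to 3.40) in the same order, with 2453 to 3469 calls. In this neighbour 5-aza-dc was below each of the other 4 libraries, with a largest adjusted p of 0.00128, and 1.97 percentage points below the vehicle control (adjusted p = 0.000400, Fisher's exact test).

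In percentage points the shores of this island varied more than the island, whose levels near 0 leave less room for such differences. Window 4911001 was at 62.7% in the control, 60.0% with etoposide, 67.2% with propyl gallate, 67.3% with theophylline and 53.5% with 5-aza-dc, with 1235 to 1522 calls. Again 5-aza-dc was below all the others (largest adjusted p = 0.00650, Fisher's exact test). On the other side, window 4907001 was at 71.1% in the control and between 78.3% and 79.0% after the 4 chemicals, so there the vehicle control stood alone (largest adjusted p = 0.00715, Fisher's exact test). Each chemical exceeded it by 7.14 to 7.85 percentage points. The 4 comparisons share this 1 value.

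The body of UHRF1 was methylated, and 4 of its windows were called. After 5-aza-dc, window 4905001 (2.4 kb from the start in the table) was at 84.1% (77.4 to 89.4, 140 calls), against 96.1% in the control (92.2 to 98.1, 181 calls), 93.9% with etoposide, 97.1% with propyl gallate and 89.9% with theophylline. This was the largest fall of UHRF1, -12.0 percentage points (adjusted p = 0.00300, Fisher's exact test). Window 4922001 (19.4 kb), which the table assigns to the microRNA gene MIR4747 within UHRF1, lay the other way, at 96.2% with 5-aza-dc (94.5 to 97.4, 735 calls) and 86.1%, 88.1%, 88.0% and 88.9% in the control and after etoposide, propyl gallate and theophylline. The difference of 10.1 percentage points had an adjusted p of 1.04e-09, and 5-aza-dc lay above each of the other 4 libraries.

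The other 2 called windows of UHRF1 were lower with theophylline. Window 4939001 (36.4 kb) was at 95.2% in the control, 91.7% with etoposide, 91.6% with propyl gallate, 83.6% with theophylline and 93.3% with 5-aza-dc (theophylline difference -11.6, adjusted p = 0.000240, Fisher's exact test). The table assigns it to MIR4747. At window 4956001 (53.4 kb) the values were 91.8%, 90.2%, 90.9%, 81.0% and 97.9% in the same order (-10.8, adjusted p = 0.000843, Fisher's exact test). Theophylline was the lowest library in both, and in the second 5-aza-dc was the highest. Of the 6 methylated island windows, 4914001 was at 87.9% in the control against 89.9% to 95.1% in the others (5-aza-dc 7.15, adjusted p = 9.86e-05, Fisher's exact test). The 5 others, 4930001, 4931001, 4941001, 4945001 and 4946001, were at 89.0% to 100%.

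Mean levels of UHRF1 over 27 windows were 83.0% in the control, 84.7% with etoposide, 83.4% with propyl gallate, 83.2% with theophylline and 81.6% with 5-aza-dc. Etoposide had the largest positive difference, 1.70 percentage points (0.990 to 2.42), and 84.6% of genes had a lower one. It was the highest library in 11 of 27 windows (40.7%, against 21.7% of all windows) and the lowest in 0. 5-aza-dc was lowest in 13 of 27 (48.1%), with a mean difference of -1.43 (-2.25 to -0.614) and 35.9% of genes below it. The difference between these 2 libraries, -3.13 percentage points, was the widest pair for UHRF1.

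**Figure D4:**
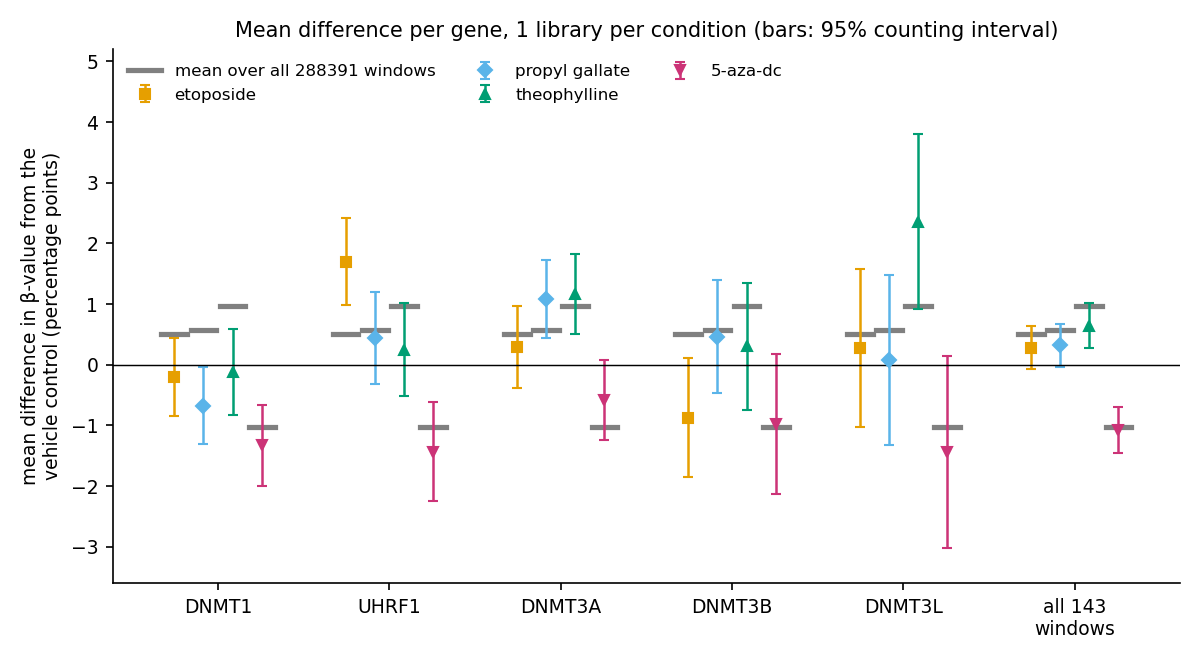
Mean difference in β-value from the vehicle control (percentage points) for each gene and chemical, with 95% counting intervals, 1 library per condition. Grey bars give the mean over all 288391 windows. After 5-aza-dc the 5 genes lie between -1.44 and -0.583, below 0 in every gene. The grey bar lies outside the interval for UHRF1 after etoposide (1.70), DNMT3B after etoposide (-0.872) and DNMT1 after theophylline (-0.125), propyl gallate (-0.673) and etoposide (-0.208).

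The de novo methyltransferase gene DNMT3A was unmethylated at its outer start and at a second island inside the gene. DNMT3A (ENSG00000119772) lies at chr2:25227855-25342590 on the minus strand, with the same start in RefSeq. The start window chr2:25342001-25343000 was at 0.793% in the control, 1.67% with etoposide, 1.33% with propyl gallate, 1.40% with theophylline and 1.13% with 5-aza-dc, with 741 to 1261 calls. Window 25341001 had no methylated call in the vehicle control (0 of 296), after etoposide (0 of 334) and after theophylline (0 of 324), which allows up to 1.01%, 0.898% and 0.926%, and 0.521% and 0.277% were methylated after propyl gallate and 5-aza-dc. Upstream, the shore window 25343001 was between 75.5% and 88.7% in the 5 libraries. The step from an unmethylated start to a methylated shore was present in each of them.

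The inner island of DNMT3A holds 3 further RefSeq starts in window 25252001, which was at or below 1.88%, and its neighbour 25251001 at or below 1.40%. At 65.1 kb from the start, the island window 25277001 was at 15.5% in the control, 17.3% with etoposide, 14% with propyl gallate, 13.3% with theophylline and 11.5% with 5-aza-dc, with 2091 to 2754 calls. 5-aza-dc was the lowest, by 3.94 percentage points from the vehicle control (adjusted p = 0.000523, Fisher's exact test). The 3 other island windows of DNMT3A, 25244001, 25247001 and 25248001, were methylated, with 89.6% to 96.4%.

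The widest difference of all called windows was in DNMT3A, in a window the table annotates as intron. Window chr2:25260001-25261000 (82.1 kb) was at 31.2% in the control (24.1 to 39.3), 12.7% with etoposide (7.91 to 19.5), 7.21% with propyl gallate (3.36 to 13.5), 28.9% with theophylline (21.2 to 37.9) and 7.07% with 5-aza-dc (4.09 to 12.5). The vehicle control and theophylline lay high and the other 3 low, with no overlap of their intervals. With 102 to 152 calls it is among the shallower windows. The differences from the vehicle control were -18.5 after etoposide (adjusted p = 0.00469), -24.0 after propyl gallate (8.75e-05) and -24.1 after 5-aza-dc (6.07e-06), all by Fisher's exact test. It was the only window called after etoposide and the only one after propyl gallate.

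The other called windows of DNMT3A lie 2 kb apart and moved in opposite directions after 5-aza-dc. The table assigns both to the microRNA gene MIR1301, and they lie within the span of DNMT3A. Window 25309001 (33.1 kb) was at 82.2% in the control, 83.8% with etoposide, 88.3% with propyl gallate, 86.1% with theophylline and 95.5% with 5-aza-dc (93.1 to 97.1, 444 calls). Here 5-aza-dc was above each of the other 4, by 13.3 percentage points from the vehicle control (adjusted p = 2.15e-10, Fisher's exact test). Window 25311001 (31.1 kb) was at 75.3%, 70%, 66.8%, 66.8% and 62.5% in the same order (-12.8, adjusted p = 0.00123, Fisher's exact test), and the window between them, 25310001, was at 76.8% to 80.7%. In window 25311001 the vehicle control was the highest library. The less covered window 25315001, with 10 to 68 calls, ranged from 0% to 39.7%, and its 0 of 10 calls after etoposide allow up to 30%.

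Mean levels of DNMT3A over 47 windows were 73.6% in the control, 73.9% with etoposide, 74.7% with propyl gallate, 74.7% with theophylline and 73.0% with 5-aza-dc. Propyl gallate and theophylline exceeded the vehicle control by 1.09 (0.448 to 1.73) and 1.16 percentage points (0.505 to 1.82). The difference after 5-aza-dc, -0.583, was the smallest in size of the 5 genes and its interval included 0 (-1.24 to 0.0708). The shallow window 25315001, with 10 to 68 calls, counts in these means like any other. It differed from the vehicle control by 15.5 percentage points after 5-aza-dc, 1.67 after theophylline, 24.7 after propyl gallate and -15.0 after etoposide. The excess of propyl gallate over etoposide in the means rests on this window. For 5-aza-dc this window made the difference of DNMT3A smaller in size, while the shallow DNMT3B window 32755001 made that of DNMT3B larger. The place of DNMT3A as the smallest thus rests on shallow windows. The vehicle control was the lowest library in 15 of the 47 windows (31.9%, against 19.7% of all windows).

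DNMT3B, the gene of the other de novo enzyme, was unmethylated at its start and had no called window. DNMT3B (ENSG00000088305) lies at chr20:32762385-32809359 on the plus strand, with the same start in RefSeq. The start window chr20:32762001-32763000 was at 0.762% in the control, 0.748% with etoposide, 0.808% with propyl gallate, 1.26% with theophylline and 0.897% with 5-aza-dc, with 2050 to 2889 calls. The next window, 32763001, lay between 0.146% and 0.746%. Just upstream, the shore window 32761001 was at 1.51%, 1.39%, 3.15%, 2.70% and 5.04% in the order above, with 306 to 449 calls. Its value after 5-aza-dc (3.32 to 7.73) was the highest of the 5, without passing the threshold (adjusted p = 0.0267, Fisher's exact test).

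The 14 other windows of DNMT3B were between 74.5% and 99.1%, the upstream island 32759001 (92.3% to 93.9%) and the island 32813001 beyond the gene's end (94.3% to 95.7%) included. Mean levels over the 17 windows were 75.5% in the control, 74.6% with etoposide, 76.0% with propyl gallate, 75.8% with theophylline and 74.5% with 5-aza-dc. The 4 differences, from -0.978 after 5-aza-dc to 0.462 after propyl gallate, had intervals that include 0. Etoposide (-0.872) and 5-aza-dc differed by 0.106. These means include the shallow window 32755001, with 27 to 59 calls. It differed from the vehicle control by -12.6 percentage points after 5-aza-dc, -4.59 after theophylline, -3.80 after propyl gallate and -8.38 after etoposide. This window lowered all 4 mean differences, and the order of etoposide and 5-aza-dc rests on it. Among windows with at least 30 calls in every library, those farthest from the control after 5-aza-dc were 32770001, from 91.9% to 86.0% (-5.90, adjusted p = 0.00411), and 32810001, from 93.5% to 99.1% (5.65, adjusted p = 0.0394, both by Fisher's exact test).

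DNMT3L, the cofactor of the de novo enzymes, had no CpG island among its 13 windows and no window under 10%. The table gives DNMT3L (ENSG00000142182) as chr21:44246339-44262216 on the minus strand, and the window of that start was not in the table. The RefSeq start at 44261897, 319 bases away, lies in window 44261001, which was measured with 321 to 509 calls. It was at 87.5% in the control, 85.1% with etoposide, 90.1% with propyl gallate, 85.8% with theophylline and 85.1% with 5-aza-dc. The nearest window upstream of both starts, chr21:44263001-44264000, which the table places in the promoter, was the least methylated of DNMT3L. It was at 56.0% in the control (51.1 to 60.7), 62.4% with etoposide (56.7 to 68.0), 62.9% with propyl gallate (57.3 to 68.1), 72.1% with theophylline (67.5 to 76.3) and 68.4% with 5-aza-dc (63.6 to 72.8), with 280 to 411 calls. The vehicle control was the lowest library, and theophylline and 5-aza-dc exceeded it by 16.1 (adjusted p = 8.69e-05) and 12.5 percentage points (adjusted p = 0.00343, Fisher's exact test).

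**Figure D5:**
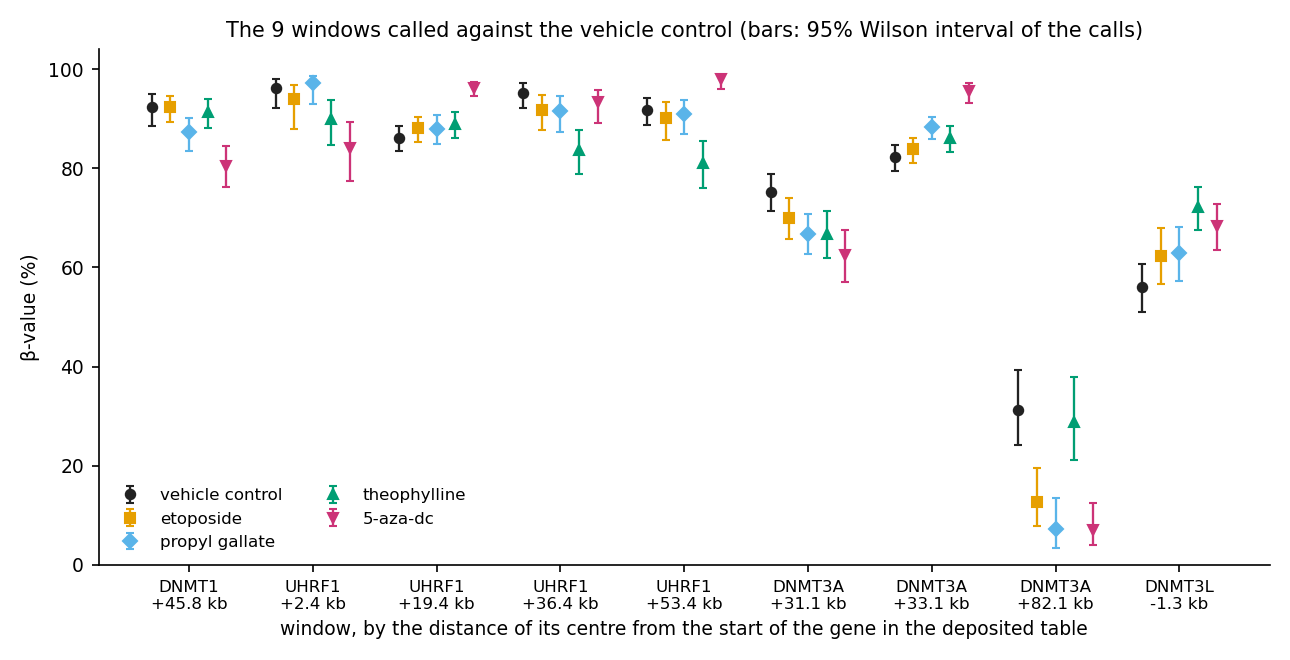
Methylation level (β-value, %) of the 9 windows called against the vehicle control in any comparison, in the 5 libraries, with 95% Wilson intervals. Windows are named by gene and by the distance of the window's centre from the start of the gene in the deposited table. In the DNMT3A window at 82.1 kb the vehicle control and theophylline (31.2% and 28.9%) stand apart from the other 3 libraries, and in the DNMT3L window the vehicle control is lowest (56.0%).

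The body of DNMT3L was methylated at 80.0% to 100%. Its lowest difference after 5-aza-dc was in window 44253001, which was at 91.2% in the control, 100% with etoposide (274 of 274 calls), 93.2% with propyl gallate, 94.2% with theophylline and 81.8% with 5-aza-dc. This difference of -9.38 did not pass the threshold (adjusted p = 0.0238), while that of etoposide, 8.82, did so without the minimum difference (adjusted p = 9.39e-06, both by Fisher's exact test). In the deepest window, 44258001 with 1943 to 3024 calls, 5-aza-dc was lowest at 85.7%, against 88.6% to 92.1% in the other 4 (-4.89 from the vehicle control, adjusted p = 1.25e-06, Fisher's exact test). The 4 windows from 44253001 to 44256001 overlap the antisense gene DNMT3L-AS1, to which the table assigns them.

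Mean levels of DNMT3L over its 13 windows were 88.2% in the control, 88.5% with etoposide, 88.3% with propyl gallate, 90.6% with theophylline and 86.8% with 5-aza-dc. Theophylline exceeded the vehicle control by 2.36 percentage points (0.916 to 3.80), more than in 88.2% of genes, and was the lowest library in 0 of 13 windows. After 5-aza-dc the difference was -1.44 (-3.02 to 0.143), the lowest mean difference of the 5 genes.

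By mean β-value in the vehicle control the order was DNMT3L (88.2%), DNMT1 (85.6%), UHRF1 (83.0%), DNMT3B (75.5%) and DNMT3A (73.6%), and the same order held after each chemical. The intervals of DNMT3B and DNMT3A did not overlap in the control and with propyl gallate, and overlapped or met in the other 3 libraries. After 5-aza-dc each of the 5 means was below the vehicle control. The values of -1.33, -1.43, -0.583, -0.978 and -1.44 for DNMT1, UHRF1, DNMT3A, DNMT3B and DNMT3L lay within the middle of the genes, whose median was -0.943 with 5% below -3.51 and 5% above 1.39. 5-aza-dc lay above each of the other 4 libraries, with an adjusted p under 0.01 in all 4 pairs, in 3 of the 143 windows (2.10%, against 0.146% of all windows). It lay below each of them in 2 (1.40%, against 2.70%). The vehicle control lay below all others in 1 (0.389% of all windows). These counts were formed after the values were seen and rest on few windows.

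The genes with the most similar 5 mean levels, by the root mean square difference over the 5 libraries among 10493 genes, were TMEM241 (0.179 percentage points) and MTHFD1 (0.232) for DNMT1, and DYNLRB2-AS1 (0.256) and IGF2R (0.333) for UHRF1. For DNMT3A they were SLC31A1 (0.283) and ZFP90 (0.285), for DNMT3B ETV4 (0.297) and USPL1 (0.298), and for DNMT3L RPS15AP30 and CALM3 (both 0.389).

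Other genes of the methylation machinery were examined as 6 lists with 40 genes, of which 39 had windows. The start window was in the table for 27 and under 10% in all libraries for 23, among them UHRF2, HELLS and LIG1, partners of maintenance methylation, the histone methyltransferase genes EHMT1 and EHMT2, and MBD1 to MBD3, which encode readers of methyl-CpG. The other 4 start windows were those of DPPA3, which encodes an inhibitor of UHRF1 in the germ line, with 79.1% to 90.9%, the deubiquitinase gene USP7 (76.1% to 85.9%), ZFP57, which encodes a factor that guards imprints (95.5% to 96.8%), and the nucleoside transporter gene SLC28A1 (85.1% to 94.8%).

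After 5-aza-dc, 1 of 122 windows of the partners of maintenance methylation was called higher and 1 lower, 2 and 1 of 183 in the recruiters and histone writers, 1 and 2 of 108 in the readers, 0 and 1 of 75 in the methyl donor cycle and 0 and 0 of 49 in the genes for uptake and metabolism of 5-aza-dc, where 0.876% of all windows were called higher and 2.76% lower. Their median differences were -0.526, -0.0264, -0.528, -0.982 and 0.586 percentage points, beside -0.637 over all windows and -0.928 over the 143. The methyl donor cycle had the lowest mean, -2.01, led by MAT1A (-5.59 over 7 windows), AHCY and GNMT (both -3.36), which encode a methionine adenosyltransferase, the hydrolase of S-adenosylhomocysteine and glycine N-methyltransferase. MAT1A was also lower after etoposide (-5.14) and theophylline (-1.73), and higher after propyl gallate (0.313). After etoposide, propyl gallate and theophylline AHCY differed by 0.833, 0.979 and 1.13, and GNMT by 2.80, -1.21 and 1.06. In the genes for uptake and metabolism of 5-aza-dc 4 of 5 had a higher mean after 5-aza-dc, and CDA was lower (-1.33). DCTD, the dCMP deaminase gene, differed by 4.52 over 7 windows, and DCK, which encodes the kinase that activates 5-aza-dc, by 0.757 over 12. This was not particular to 5-aza-dc, since 4 of 5 were also higher with etoposide, 5 of 5 with propyl gallate and 4 of 5 with theophylline. TRDMT1, the tRNA methyltransferase gene once named DNMT2, had 3 windows, with a mean difference of -0.419 and no call. With the 3 other chemicals, 0 to 3 windows of each list, which hold 3 to 183 windows, were called higher and 0 to 3 lower. The most were 3 higher and 3 lower of 183 with theophylline in the recruiters and histone writers. The shares of all windows called higher and lower were 1.59% and 0.681% with theophylline, 1.34% and 0.880% with propyl gallate and 1.36% and 0.956% with etoposide.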

How the data were processed

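RRBS was performed on human iPSCs in 5 libraries, 1 per condition. Per the submitters' processing notes, FastQC 0.11.7, Trim Galore 0.5.0, Bismark 0.20.0, SAMtools 1.9 and methylKit 1.10.0 were used with hg38. CpG calls were summed over windows of 1000 bases, coverage was scaled between libraries, and windows of fewer than 10 calls or above the 99.9th percentile of coverage were removed. For DNA extraction the labels and the methods give different kits.

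The deposited values of the vehicle control are counts of calls, to which the authors applied no scaling. Those of the 4 exposed libraries are treated as a score, since the authors deposited them multiplied by a factor and rounded. The deposited β-value is a fraction, the share of methylated calls that the authors computed from these. The factors, read from whole numbers that never occur, were 1.21 for 5-aza-dc, 1.15 for theophylline, 1.09 for propyl gallate and 1.18 for etoposide. Calls before scaling were recovered with them, and scaling these again returned at least 99.95% of coverages and 99.86% of methylated calls. The windows hold 188844850 to 228919184 calls per library.

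Fisher's exact test (two-sided) used the recovered calls over all 288391 windows, with Benjamini-Hochberg adjustment. On simulated data for 5-aza-dc against the vehicle control, 200 of 200 windows lowered by 30 percentage points were called. So were 2 of the unchanged windows of 288391. The planted fall was larger than the minimum difference for a call. The simulation thus checks the procedure and gives no error rate for real libraries, whose calls are not independent. Between real exposed libraries other than 5-aza-dc, 2.17% to 2.29% of all windows were called. Means carry binomial counting intervals with the windows taken as fixed. Windows named were those at starts in the deposited table and beside them, called windows, the lowest and highest 5-aza-dc difference of each gene with at least 30 calls, and islands. Windows named outside this rule were chosen after their values were seen. Members and lists were chosen with earlier results of these data known. Alternatives covered the windows of a gene, coverage, thresholds, pooling, the reference, zeros and scaling, and limiting DNMT1 to its RefSeq position was added after seeing the data. Table gene positions lay within 1000 bases of GRCh38.p14 for 97.4% of 32822 genes. Promoters are from RefSeq, and 4 of the 5 genes had entries. Analyses used Python 3.11.15, numpy 2.4.6, pandas 2.3.3, scipy 1.17.1, numba 0.67.0 and matplotlib 3.10.9.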

Additional observations from a re-analysis of the deposited data

How the results depend on the processing

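With 1 library per condition, depth limits the single windows and no spread between replicates was available. No paired analysis was possible because each condition has 1 library, so the groups share fewer than 2 replicate numbers. Of the alternatives to the mean difference in β-value over the 143 windows, 40 of 44 values moved by less than the error of the main counting interval. The other 4 came from pooling the calls, which weights windows by depth, and were -2.98 percentage points for 5-aza-dc, 2.20 for theophylline, 1.22 for propyl gallate and 0.650 for etoposide, with no change of direction. Within the error, values still moved by over 1.5 times for etoposide (0.280 to 0.433 over assigned windows, 0.435 with at least 30 calls and 0.147 as the median), propyl gallate (0.320 to 0.552 over assigned windows, 0.202 with at least 100 calls and 0.210 as the median) and theophylline (0.645 to 0.318 with no flank).

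The mean log2 ratio turned for etoposide with a pseudocount of 1 percentage point (-0.0024) and over windows with a mean of at least 10% (-0.00063), and for propyl gallate over the latter (-0.00095). As the log2 of the ratio of means it was 0.0050 for etoposide. The other 16 of 20 values moved by less than the error.

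The counts of called windows stayed within 1.5 times in 25 of 40 cases. With calls divided by 10 they were 0 for each chemical, and with a minimum of 25 percentage points also 0. Without a minimum difference they were 26 for 5-aza-dc, 10 for theophylline, 14 for propyl gallate and 16 for etoposide. With an adjusted p under 0.05 they were 2 for etoposide and 2 for propyl gallate. Over windows assigned to a member, 5-aza-dc had 3. Limiting DNMT1 to its RefSeq position, chosen after seeing the data, moved none of these results beyond the same bounds.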

Other observations

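In 2 windows of DNMT3L a library other than 5-aza-dc or the vehicle control stood above each of the other 4 with an adjusted p under 0.01 in all 4 pairs by Fisher's exact test. Window 44253001 was at 100% with etoposide, against 81.8% to 94.2% in the others (largest adjusted p = 0.000803, Fisher's exact test). Window 44271001 was at 95% with theophylline, against 90.9% to 92.6% (largest adjusted p = 0.00930, Fisher's exact test). Each is 1 of the 143 windows (0.699%), near the shares of all windows where etoposide (0.422%) or theophylline (0.687%) lay above the others in this way.

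Over the 14 methylated island windows the mean difference was -1.79 percentage points for 5-aza-dc and -1.83 for propyl gallate, against -1.06 and 0.487 over all methylated island windows. Propyl gallate thus lay on the other side of 0 there. These differences were not tested.

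Window 4908001 of UHRF1, beside the island at the RefSeq starts, was at 78.8% in the control, 90.0% with etoposide, 86.3% with propyl gallate, 87.7% with theophylline and 68.5% with 5-aza-dc. The differences of 11.2 percentage points with etoposide (adjusted p = 0.0435) and -10.3 with 5-aza-dc (adjusted p = 0.176, both by Fisher's exact test) did not pass the threshold of 0.01, and the window was chosen after its values were seen.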
